A study of Mus musculus with 6 samples.

Results

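The class 3 semaphorins are secreted guidance proteins, and the genes described here are 5 of these ligands and 5 of their receptors. The members were the probe sets whose platform symbol is Sema3a, Sema3b, Sema3c, Sema3e, Sema3f, Plxna1, Plxna2, Plxna3, Nrp1 or Nrp2. They came to 11 of the 12422 probe sets on the array that are not controls, and to 9 of 8251 named genes. Sema3b and Nrp1 had 2 probe sets each. Nrp2 had no probe set with its symbol alone and was not analysed here. The members were chosen by symbol, but the family was selected on its intensities in these EGFP-high and EGFP-negative arrays, so the members' differences are given as a description, with no p-value.

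RNA came from keratinocytes of the skin of K15-EGFP transgenic mice, in which the promoter of keratin 15 drives enhanced green fluorescent protein (EGFP). The mice of both groups carry the transgene. The EGFP-high group held 3 samples of sorted cells with high EGFP and α6 integrin on their surface, and the EGFP-negative group 3 samples of cells without EGFP that also carried α6 integrin. The labels give no age, sex or strain and do not say whether replicates are separate animals, so p-values measure only the spread between these samples, which may be technical. The keratin 15 promoter marks the hair follicle bulge, where follicle stem cells reside, and the EGFP-negative gate holds the remaining basal keratinocytes.

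Class 3 semaphorins act on cells that carry a plexin, which signals through a domain that switches off small GTPases of the Ras family, and in most cases a neuropilin, which binds the ligand and associates with the plexin. Sema3a signals mainly through Nrp1 and Sema3f mainly through Nrp2, with A-type plexins as the signalling chain. Sema3c can use either neuropilin, and Sema3e binds plexin D1 directly without a neuropilin. In skin these ligands are known for steering sensory axons and blood vessels.

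Promoter sequences are shown for the ligand and the receptor that were higher in EGFP-high cells, Sema3e and Plxna2, for Sema3c, a ligand that was lower, and for Sema3a, whose array signal was at background, so that their base composition can be set side by side. They run from 250 bases before to 50 bases after a gene's start, 5′ to 3′, from RefSeq on GRCm38.p6. The table held 7 of the 10 members, and the start it lists need not be the one used in skin. Capitals mark the GC box, GGGCGG on either strand.
Sema3e promoter, chr5:14025026-14025325, plus strand: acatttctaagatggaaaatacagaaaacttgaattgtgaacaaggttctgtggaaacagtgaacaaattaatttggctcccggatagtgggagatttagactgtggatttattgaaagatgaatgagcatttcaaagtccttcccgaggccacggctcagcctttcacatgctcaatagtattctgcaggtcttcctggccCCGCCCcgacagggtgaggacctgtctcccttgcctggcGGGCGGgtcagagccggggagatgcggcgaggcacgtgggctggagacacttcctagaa
Plxna2 promoter, chr1:194619579-194619878, plus strand: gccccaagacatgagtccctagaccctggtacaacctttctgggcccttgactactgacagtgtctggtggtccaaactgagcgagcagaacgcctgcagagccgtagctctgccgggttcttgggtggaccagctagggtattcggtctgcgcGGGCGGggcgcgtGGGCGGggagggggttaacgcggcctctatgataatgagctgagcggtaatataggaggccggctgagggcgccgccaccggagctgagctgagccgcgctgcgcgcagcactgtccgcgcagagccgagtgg
Sema3c promoter, chr5:17574566-17574865, plus strand: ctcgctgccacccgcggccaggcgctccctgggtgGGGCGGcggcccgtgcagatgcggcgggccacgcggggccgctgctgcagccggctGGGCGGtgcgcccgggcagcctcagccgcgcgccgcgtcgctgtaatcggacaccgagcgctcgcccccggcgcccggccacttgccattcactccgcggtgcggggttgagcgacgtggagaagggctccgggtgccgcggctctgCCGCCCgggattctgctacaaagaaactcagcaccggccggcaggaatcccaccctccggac
Sema3a promoter, chr5:13396534-13396833, plus strand: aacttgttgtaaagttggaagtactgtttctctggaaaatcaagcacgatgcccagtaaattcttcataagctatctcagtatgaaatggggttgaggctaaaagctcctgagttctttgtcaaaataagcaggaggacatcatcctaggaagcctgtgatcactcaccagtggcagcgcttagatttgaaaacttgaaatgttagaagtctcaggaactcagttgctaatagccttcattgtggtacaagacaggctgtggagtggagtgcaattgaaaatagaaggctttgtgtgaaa

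The Sema3c promoter was 75.7% G and C, a share above that of 96.7% of the 32851 promoters in the table, and held 42 CpG dinucleotides. Plxna2 followed with 64.7% and 25 CpG, and Sema3e with 50.7% and 11 CpG, close to the median of all promoters (52.7% and 7). The Sema3a promoter was 41.3% G and C with 2 CpG. GC boxes numbered 3 in Sema3c, 2 in Sema3e, 2 in Plxna2 and 0 in Sema3a, and 35.7% of all promoters held at least 1. Of 6 other motifs searched on both strands, none of which lies inside another, the Sema3e promoter held 1 E-box CACGTG (7.15% of all promoters have it), 1 TCF/LEF core CTTTGA (16%) and 2 NFAT cores GGAAA (61.3%). Sema3a held 1 GGAAA. The letters TATAAA (13.6%), TAATTA (5.29%) and TGANTCA (7.81%) were in none of these 4 windows. These matches describe letters in the window and not bound sites. Sema3c is the only lower member shown, so these windows cannot describe higher or lower members as classes. In the RefSeq gene order 3 protein-coding genes lie between Sema3a and Sema3e, and 15 between Sema3e and Sema3c. Sema3b and Sema3f are likewise separated by 3.

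The ligands differed in direction. Sema3e was higher in EGFP-high cells, Sema3c and Sema3f were lower, and Sema3a and Sema3b lay at background in both groups. Among the receptors Plxna2 was higher, Plxna1 and Plxna3 had overlapping groups, and Nrp1 was at or near background. Background was read from 19 control probe sets for bacterial and yeast genes, whose 95th percentile was 25.5 to 42.2 on the 6 arrays. Sema3c, Sema3e, Plxna1, Plxna2 and Plxna3 were above it on all 6 arrays.

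**Figure D1:**
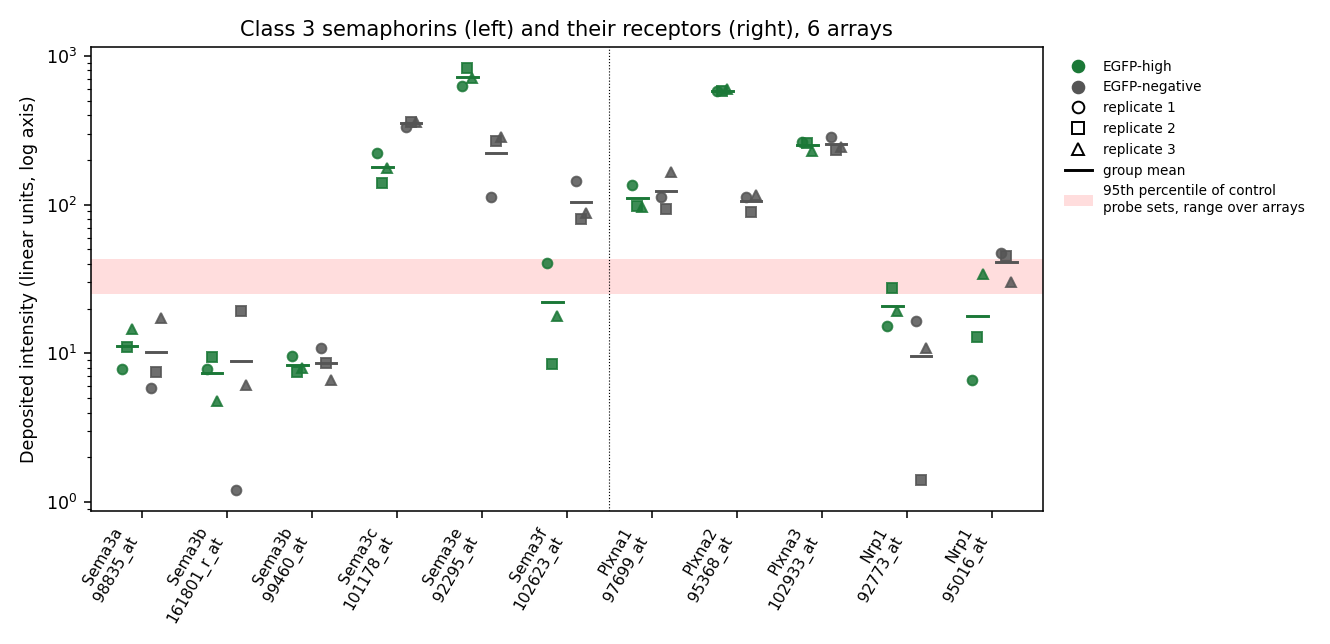
Deposited intensity of each member probe set on a log axis, with 1 point per array (green EGFP-high, grey EGFP-negative, marker shape for the replicate number), a bar for each group mean, and a band for the range of the control 95th percentile. Sema3e and Plxna2 sit higher in all 3 EGFP-high arrays, Sema3c and Sema3f lower, and Sema3a and Sema3b lie under the band.

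Sema3e read 625.3, 824 and 716.2 in EGFP-high replicates 1, 2 and 3, and 113, 269.2 and 284 in EGFP-negative replicates 1, 2 and 3. All EGFP-high arrays were above all EGFP-negative arrays, and EGFP-negative replicate 1 was the lowest. Sema3e encodes the ligand of plexin D1, known for repelling vessels. The means were 722 ± 99.5 against 222 ± 94.7 (SD, n = 3 each), a ratio of 3.25. On the scale used for tests, log2 of the intensity plus 19.3, the difference was 1.70 (SE 0.30), and 2.28, 1.55 and 1.28 between arrays of the same replicate number. These arrays measure pools of sorted cells, in which fewer cells of a type and less RNA per cell cannot be told apart.

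Sema3c read 222.1, 140.8 and 177.1 in the EGFP-high arrays, and 334.2, 361.8 and 359.2 in the EGFP-negative arrays. The groups did not overlap, and the EGFP-negative arrays lay closer together than the EGFP-high arrays. Sema3c encodes a ligand known for its part in forming the outflow tract of the heart. Its means were 180 ± 40.7 against 352 ± 15.2 (SD, n = 3 each), a log2 difference of -0.92 (SE 0.18).

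Sema3f, a ligand that repels axons carrying Nrp2, read 40.3, 8.5 and 17.9 in the EGFP-high arrays, none of them above the control 95th percentile of its array. It read 143.4, 80.7 and 88.1 in the EGFP-negative arrays, all above it. The groups did not overlap, and the log2 difference was -1.61 (SE 0.33). Its size follows the pseudocount, the constant added before the logarithm: -2.14 with a constant 0.25 times as large and -0.86 with one 4 times as large. Its mean intensity of 49.7 was just over the filter of 44.5 and owed this to the EGFP-negative arrays.

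Sema3a, the ligand that keeps sensory axons out of tissue, read 7.8 to 14.6 in EGFP-high and 5.9 to 17.3 in EGFP-negative arrays. Sema3b, a ligand of the same family, read 4.8 to 9.6 and 1.2 to 19.4 over its 2 probe sets. None of these 3 probe sets exceeded the control 95th percentile on any array, so a difference in these genes was not detectable here. This does not show that the transcripts are absent, because a probe set can also fail to report its gene.

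Plxna2 stood apart among the receptors. It read 577.6, 578.5 and 599.2 in the EGFP-high arrays and 112, 89.5 and 117 in the EGFP-negative arrays. The groups were far apart against their spread, with means of 585 ± 12.2 and 106 ± 14.6 (SD, n = 3 each), a ratio of 5.51. The log2 difference was 2.27 (SE 0.16), with 2.18, 2.46 and 2.18 between arrays of the same number. Plxna2 encodes a signalling chain for class 3 semaphorins and a direct receptor of class 6 semaphorins.

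Its relatives did not show this difference. Plxna1 read 136.3, 97.9 and 96.1 in EGFP-high and 111.8, 94.1 and 166.7 in EGFP-negative arrays. The groups overlapped, and the log2 difference was -0.13 with a 95% interval of -0.65 to 0.39. Plxna3 read 265.8, 261.4 and 228 against 286.7, 234.4 and 242.6. These groups overlapped as well, with a difference of -0.01 and an interval of -0.37 to 0.34. Plxna1 and Plxna3 encode signalling chains of the same A type.

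The neuropilin Nrp1, the ligand-binding chain for Sema3a and a co-receptor for vascular endothelial growth factor, gave no usable difference. One probe set read 15.4, 27.5 and 19.2 in EGFP-high and 16.6, 1.4 and 10.9 in EGFP-negative arrays, all under the control 95th percentile. The other read 6.6, 12.8 and 34.2 against 47.1, 45.4 and 30.2, above it on 1 of 3 EGFP-high and on 3 of 3 EGFP-negative arrays. The log2 differences of 0.49 (SE 0.23) and -0.75 (SE 0.30) have opposite signs, and both pairs of groups overlapped.

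**Figure D2:**
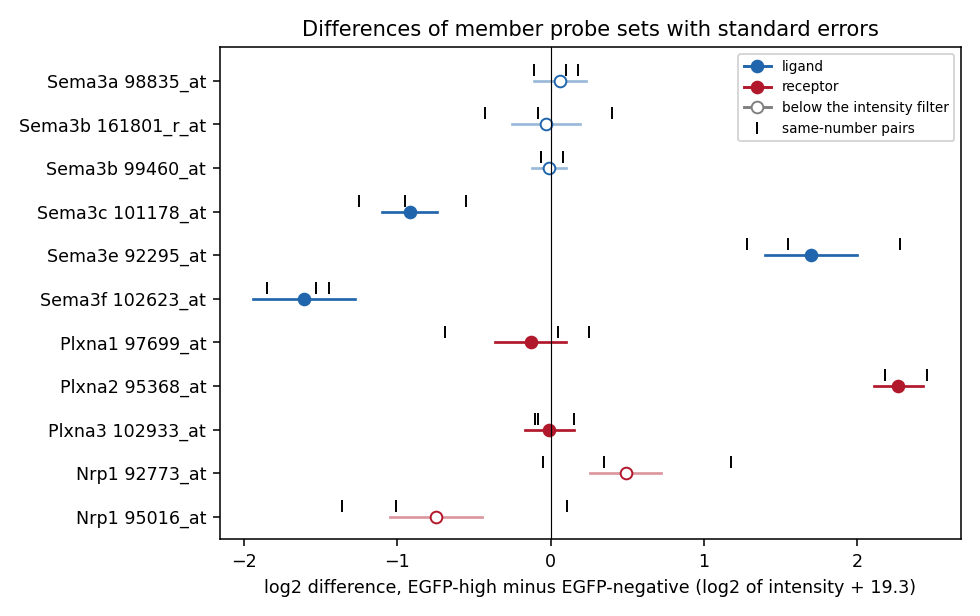
log2 difference of each member probe set, EGFP-high minus EGFP-negative, with bars of 1 standard error; ticks above each point are the 3 differences between arrays of the same replicate number, blue marks ligands, red marks receptors, and open points lie under the intensity filter. Plxna2 (2.27) and Sema3e (1.70) are on the right, Sema3c (-0.92) and Sema3f (-1.61) on the left, with all 3 ticks of each on the same side of 0.

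Of the 11 member probe sets 6 passed the filter on low values. Among these, 2 were past the threshold of an adjusted p of 0.05 in the higher direction and 2 in the lower, in a fit of all probe sets in which 5.19% passed (3.02% higher, 2.17% lower). The higher ones were a ligand, Sema3e, and a receptor, Plxna2, and the lower ones the ligands Sema3c and Sema3f, of which Sema3f passed the filter through its EGFP-negative arrays. Groups did not overlap for the same 4 of 6, beside 22.7% of all tested probe sets. Because members were chosen with this comparison in view, nothing is read from these shares.

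The fits that follow use the values on which the family was selected. They describe how the calls depend on single arrays and are no support for a member. Of these 4 members only Plxna2 stayed past the threshold whichever single array was left out. Without EGFP-high replicate 2, or without EGFP-high replicate 3, it was the single member past the threshold. Sema3e was past it together with Plxna2 when EGFP-negative replicate 1 was left out, and again when EGFP-negative replicate 3 was. In both of those fits Sema3f was below the filter and not tested. Dropping EGFP-negative replicate 2 left Sema3e, Plxna2 and Sema3f past the threshold. Sema3c stayed past it in 1 of the 6 fits, the one without EGFP-high replicate 1. With the replicate number as a block the same 4 members were past the threshold, beside 10.4% of all probe sets.

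In all 4 of these genes EGFP-high replicate 1 was the EGFP-high array nearest to the EGFP-negative mean. For Plxna2 the margin was very small, with 577.6 beside 578.5 and 599.2 in EGFP-high replicates 2 and 3. EGFP-high replicate 1 also stood nearest to the other group on component 1 of all tested probe sets. Its score was -10.1 beside -29.5 and -24.3 for EGFP-high replicates 2 and 3. The part of that array in the members' values was not tested. Leaving out the array nearest to the other group enlarges a difference by construction, so nothing is read from the fit without it. The log2 differences of that fit were -1.06, 1.80, -1.91 and 2.28 for Sema3c, Sema3e, Sema3f and Plxna2.

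The genes most like Plxna2 and Sema3e over the 6 arrays were named by the correlation of log2 values. For Plxna2 these were S100a4 (r = 0.999), the bulge marker Cd34 (r = 0.998) and Lgals1 (r = 0.997), which encodes galectin 1. For Sema3e they were Lpgat1 (r = 0.996), Tpst1 (r = 0.992) and Rflnb (r = 0.989). The 6 points share the division into both groups, so these values mostly restate that each gene differs between groups. Lgals1 read 394 against 84.9 and Tpst1, a sulfotransferase, 277 against 64.1 in EGFP-high and EGFP-negative cells.

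Other genes of the pathway were taken from lists of related ligands, receptors, partners and effectors. Of 65 such genes on the array 37 were tested, and 1 was higher and 1 lower, where 3.06% and 2.27% of all 5628 named genes tested were. Their median log2 difference was -0.04, beside -0.002 over all genes. The lists were chosen with earlier results of these data known, so p-values of listed genes are descriptive and no independent support.

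Alcam, a cell adhesion molecule of the immunoglobulin family that takes part in the response of axons to semaphorins, rose. It read 391.9, 324.9 and 522.4 in EGFP-high and 71.4, 60.6 and 87.9 in EGFP-negative arrays, with no overlap. The log2 difference was 2.21 (SE 0.21, limma adjusted p = 0.000555, higher in 3 of 3 pairs), and the adjusted p was at most 0.0228 over the alternatives. Vegfd, a vascular endothelial growth factor that acts on lymphatic vessels, fell. It read 46, 64 and 57.7 against 123.8, 194.3 and 146.7, a log2 difference of -1.20 (SE 0.21, limma adjusted p = 0.0111, lower in 3 of 3 pairs). Without both arrays of number 2 or of number 3 its adjusted p was 0.0967 and 0.158.

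The other lists held no gene past the threshold. Among 7 tested semaphorins of other classes, all membrane-bound or membrane-anchored, 0 passed, with a median of 0.12: Sema4f read 419 ± 85.9 against 298 ± 82.4 (limma adjusted p = 0.357) and Sema4a 300 ± 29.4 against 314 ± 47.8 (limma adjusted p = 0.912). Plxnb2, the plexin tested outside the A type and a receptor of class 4 semaphorins, read 382 ± 22 against 454 ± 57.4 (limma adjusted p = 0.522). Plxnd1, the direct receptor of Sema3e, was at background on all 6 arrays at 8.7 to 11.1 and was not tested. A difference in Plxnd1 was therefore not detectable beside the higher Sema3e.

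The same held for the tested genes downstream of plexins. Of 16 tested intracellular effectors 0 passed, with a median of -0.10, where 5.33% of all named genes tested did. With that share and lists this short, nothing is read from a count of 0. Fyn, an effector below the filter, was not among the 16. Rac1, a GTPase of the actin cytoskeleton, read 2070 ± 329 against 2210 ± 440 (limma adjusted p = 0.881), and Cfl1, the actin-severing protein cofilin, 1060 ± 96.7 against 1320 ± 95.6 (limma adjusted p = 0.326). Of 5 tested processing proteases 0 passed: Furin, which cleaves class 3 semaphorins, read 571 ± 92.5 against 489 ± 55.6 (limma adjusted p = 0.612), and Adam10, a membrane protease, 118 ± 23.2 against 198 ± 18.9 (limma adjusted p = 0.0739; 0.0379 with the replicate block). Of the co-receptors and partners, Chl1, an adhesion molecule of the L1 family, had 340 ± 118 in EGFP-negative and 147 ± 151 in EGFP-high cells (limma adjusted p = 0.212; 0.0144 with the replicate block). The adaptor Gipc1, which binds the tail of Nrp1, read 197 ± 23.7 against 269 ± 43.3 (limma adjusted p = 0.27). Of 2 tested genes for vascular endothelial growth factors and their receptors, the one beside Vegfd was Vegfb (171 ± 38.7 against 153 ± 45.7, limma adjusted p = 0.804). Of 3 tested slit and netrin genes 0 passed, among them Neo1, a netrin receptor (199 ± 59.4 against 132 ± 25, limma adjusted p = 0.349), and Ntn1, which encodes netrin 1 (106 ± 14.3 against 113 ± 5.89, limma adjusted p = 0.871).

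**Figure D3:**
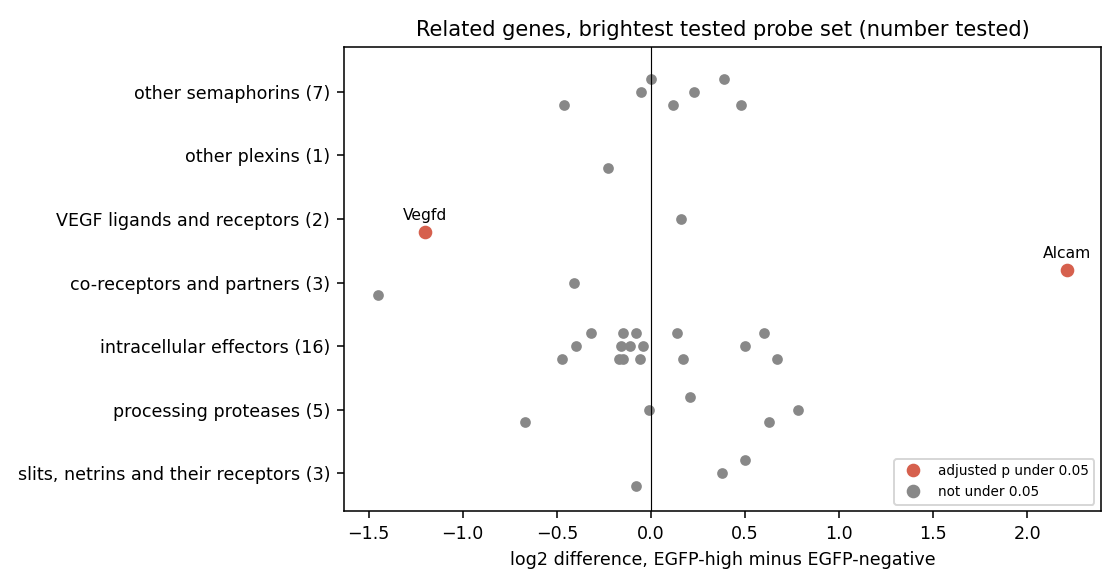
log2 difference of each tested related gene by list, EGFP-high minus EGFP-negative, at its brightest probe set, with the number of tested genes in parentheses; rows are spread vertically for legibility and red points have an adjusted p under 0.05. Alcam (2.21) and Vegfd (-1.20) are the red points, and the other 35 genes are grey.

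A further 28 related genes had no probe set above the filter, which uses the mean of both groups and so leaves out genes seen in 1 group. Of these, 6 had groups that did not overlap (11.9% of all probe sets below the filter): Sema5a, Sema5b, Nrcam, Fyn, Pcsk7 and Robo1. The following 3 are named after their values were seen. Nrcam, an L1-family adhesion molecule that joins semaphorin receptors, read 83, 110.6 and 83.2 in EGFP-high and 8.8, 4.9 and 5.7 in EGFP-negative arrays, where it was at background. Fyn, a kinase that acts downstream of plexin A, read 99.5, 95.5 and 90.3 against 6.5, 38.4 and 7.3. Robo1, the receptor of slit ligands, showed the opposite, with 12.5, 5.7 and 4.9 against 96.6, 91.1 and 86.8. These 3 genes and the called genes Alcam and Vegfd were the ones past the threshold when no filter was applied.

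**Figure D4:**
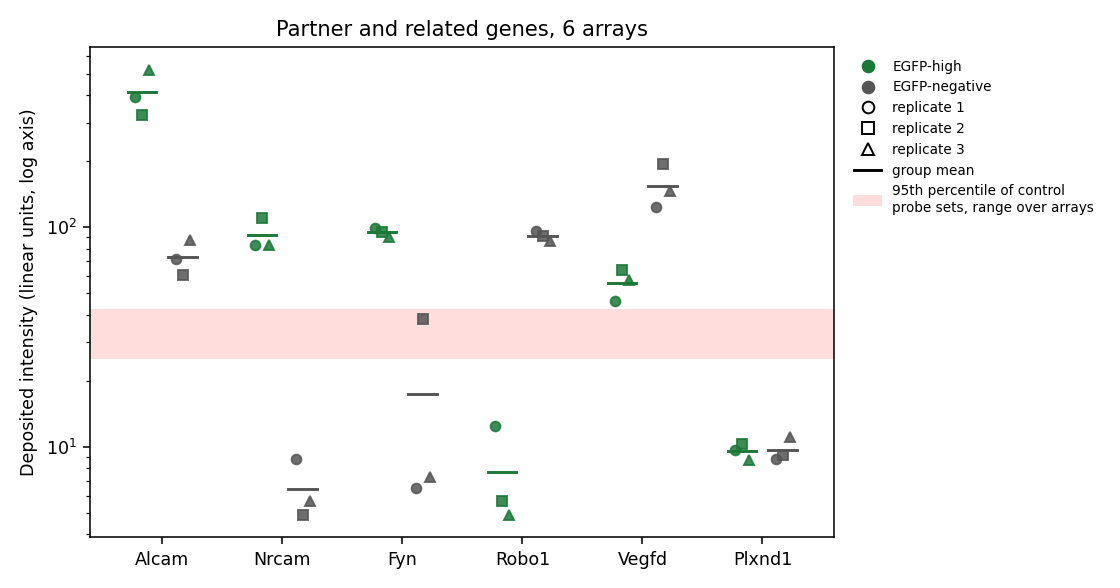
Deposited intensity on a log axis of 6 related genes, with 1 point per array (green EGFP-high, grey EGFP-negative), bars for group means and a band for the range of the control 95th percentile. Alcam, Nrcam and Fyn lie higher in EGFP-high cells, Robo1 and Vegfd lower, and Plxnd1 lies under the band in both groups.

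Markers of the labelled cells and of other cells in skin were read on the same arrays. Of 7 tested bulge markers 6 rose, Postn, Dkk3 and Cd34 among them, and 7 with the replicate block, Nfatc1 being added. Krt14, Krt5 and Krt15 were at or near background. As with Sema3a and Sema3b, this does not show that the transcripts are absent, because a probe set can fail to report its gene. Of 6 tested basal keratinocyte genes 0 were higher and 1 lower, Itga6, which encodes the α6 integrin of both gates (492 ± 90 against 1200 ± 162, log2 difference -1.26, limma adjusted p = 0.00449). Col17a1, a basal keratinocyte collagen, read 7820 ± 893 against 7030 ± 500. Endothelial cells carry Nrp1 and Plxnd1. Of 10 endothelial genes on the array 2 were tested and 0 called, and 5, with Cdh5, Tek, Tie1 and Vwf, were above the control level on no array. The summed intensity of all 10 genes was 400.3 to 511.7 in EGFP-high and 432.1 to 509.3 in EGFP-negative arrays. Of 4 Schwann cell and nerve genes 3 were tested and 0 called (548.7 to 592.4 against 589.8 to 712.7), and of 6 smooth muscle and pericyte genes 2 were tested and 0 called (169 to 227.1 against 207.5 to 282.9). Of 8 fibroblast genes 5 were tested, and Thy1 was lower (limma adjusted p = 0.0382; sums 1110 to 1364 against 1228 to 1423). The probe sets of Col1a2 differed, with 708 ± 154 against 713 ± 21.6 on its brightest one. Its other read 162 ± 80.7 against 14.3 ± 1.56 (limma adjusted p = 0.00489). Both probe sets of Col1a1 were higher in EGFP-high cells without overlap. The brighter one read 238 ± 34.5 against 171 ± 60.3 (limma adjusted p = 0.397), and the dimmer one, below the filter, 49.1 ± 17.7 against 6.6 ± 1.08. The groups overlapped on every probe set of Col3a1. Of 7 melanocyte genes 4 were tested, and Mitf was higher (limma adjusted p = 0.0147; sums 613.8 to 711 against 452.8 to 498). Mitf read 124 ± 27.9 against 45.7 ± 6.74. The other tested genes, Sox10, Pmel and Dct, overlapped between groups. Sox10 read 229 against 180, Pmel 94.2 against 60.3 and Dct 100 against 106. Below the filter Tyr and Tyrp1 overlapped, and Kit did not (34.2 ± 4.31 against 23.2 ± 1.38). Of 15 leukocyte genes 4 were tested and 0 called (842.4 to 1063 against 587.4 to 862.2). Below the filter, Cd3e, the brighter probe set of Cd3d, and Coro1a did not overlap between groups, beside 11.9% of all probe sets below the filter. Each of them was above the control 95th percentile on only 1 of 6 arrays. Cd3e and Cd3d were higher in EGFP-high cells (63.9 ± 61.9 against 20.7 ± 1.11, and 23.2 ± 5.1 against 5.67 ± 3.01). Coro1a was lower (16.6 ± 1.95 against 36.4 ± 28.9). The Cd3e mean rested mostly on 1 array, with 27.7, 28.7 and 135.4 in EGFP-high replicates 1, 2 and 3. The part of such cells in the members' values was not tested. The ratio of the 3′ to the 5′ control probe set of actin, a sign of RNA integrity, was 1.42 to 2.03 in EGFP-high and 1.26 to 1.59 in EGFP-negative arrays.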

How the data were processed

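The deposited table holds linear intensities of 12488 rows of an Affymetrix mouse array on 6 arrays; the software the authors used to make them is not given in the sources used here. All 6 columns had a 2% trimmed mean of 150.1, and array medians ran from 69.55 to 76.05, so no rescaling was done. The number of arrays limits the precision. Groups and replicate numbers come from the sample titles. The 66 control rows were left out. Platform symbols were looked up by Entrez identifier in RefSeq (GRCm38.p6, names only), which changed 0; 10833 probe sets had 1 symbol, 396 several and 1193 none.

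Values were analysed as log2(intensity + 19.3), the constant being the 25th percentile of values above 0, which understates changes of dim genes. Probe sets with a mean above the 40th percentile (7453) were tested with limma 3.58.1 in R 4.3.3 (lmFit, eBayes with trend, two-sided, Benjamini-Hochberg adjustment, threshold 0.05), without the replicate number. A listed gene was read at its brightest probe set. On simulated data of 7453 probe sets this fit recovered 50% of log2 changes of 1 and 95% of changes of 2. The simulated noise was independent between arrays, unlike the same-number correlation given next, so these shares need not hold here. Deviations from group means correlated at 0.336, 0.368 and 0.305 within numbers 1, 2 and 3, above the limit of 0.1. Same-numbered samples therefore appear paired, from the titles and this check, since no label says so; the p-values and calls come from unpaired tests except where the replicate block is named.

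The members and lists were chosen with earlier results of these data known. Named genes are all members, the called and the brightest uncalled genes of each list, and genes most correlated with the ligand and the receptor of largest difference. Alternatives changed the constant, filter, scaling, trend, block, probe set rule and arrays used.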

Additional observations from a re-analysis of the deposited data

How the results depend on the processing

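With the replicate block, 778 probe sets passed in place of 387 (382 higher and 396 lower in place of 225 and 162), and 4 related genes in place of 2, Adam10 and Chl1 being added and no other member or related call changing. Related genes passing came to 5 without a filter on low values and to 1 with a filter at the 60th percentile. Leaving out single arrays or both arrays of 1 number gave 57 to 499 probe sets (43 to 265 higher, 14 to 234 lower), 1 to 4 members and 1 to 4 related genes; the lowest counts of probe sets were without both arrays of number 3. Sema3f was not past the threshold without a filter and was below the filter at the 60th percentile, while Sema3c, Sema3e and Plxna2 were past it in all 7 alternatives that keep the 6 arrays. No called member or related gene changed direction in any alternative run for it. Over all alternatives the log2 difference was 1.32 to 1.92 for Sema3e, 1.86 to 2.42 for Plxna2, -1.10 to -0.75 for Sema3c and -2.14 to -0.86 for Sema3f. Signal near the control level limits what Sema3a, Sema3b, Sema3f in EGFP-high cells, and Nrp1 can show.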
